A study of Mus musculus with 2 samples.

Results

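Pdx1, Onecut1, Onecut2, Hhex, Prox1 and Cdx1 encode 6 transcription factors that act in the forming gut, liver and pancreas. They were taken by name, and each deposited Suz12 peak that overlapped one of these genes, or lay within 10 kb of either end of it, was counted. They are 6 of the 21631 protein-coding genes that RefSeq places on the 20 mouse chromosomes with peaks. The peaks come from chromatin immunoprecipitation followed by sequencing in 1 library of wild-type E14 cells, a mouse embryonic stem cell line. These cells had differentiated for 72 h in serum medium to which 1 µM all-trans-retinoic acid had been added and from which leukemia inhibitory factor, which holds stem cells in their undifferentiated state, had been left out. The other library of the series, from Suz12[-/-] cells in serum at 0 h with the same antibody, was not analysed here. Genotype and time both separate these 2 libraries, so they were not compared, and no replicate error, test or p-value is given. The file gives no read counts, so the depth is unknown and binding too weak to be called by the authors would not be seen. A peak list holds no expression values, so the cell type was not checked against marker genes, and a peak carried by all cells cannot be told apart from one carried by some of them.

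Suz12 is a core subunit of Polycomb Repressive Complex 2, which methylates histone H3 on lysine 27 and is known for binding CpG-rich starts of silent developmental genes in embryonic stem cells. The endoderm, the inner germ layer of the embryo, gives rise to gut, liver and pancreas through sets of transcription factors that act in overlapping regions. Pdx1 is a homeobox factor required for the pancreas and later for beta cells. Hhex is a homeobox factor of the anterior endoderm and of the liver and ventral pancreas buds. Prox1 is a homeobox factor of migrating liver cells, lymphatic vessels, lens and neurons. Onecut1, also called HNF-6, and Onecut2 are paralogues with a cut domain and a homeodomain that act in liver, pancreas and neurons. Cdx1 is a caudal-type homeobox factor of the posterior embryo and the intestinal epithelium, and a known retinoic acid target.

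The stretches around the start sites are shown because a Suz12 peak lay over each of them and because they differ widely in CG content. They are RefSeq promoter windows of build GRCm38.p6, each with 250 bases before and 50 after a start site, given 5′ to 3′ on the strand of the gene with every CG dinucleotide in capitals. The Pdx1 window is chr5:147269847-147270146 on the plus strand, the Onecut1 window chr9:74861671-74861970 on the plus strand and the Hhex window chr19:37434591-37434890 on the plus strand. Prox1 lies on the minus strand and has 2 windows, start 1 at chr1:190170778-190171077 and start 2 at chr1:190169466-190169765, whose start sites are 1312 bp apart.
Pdx1: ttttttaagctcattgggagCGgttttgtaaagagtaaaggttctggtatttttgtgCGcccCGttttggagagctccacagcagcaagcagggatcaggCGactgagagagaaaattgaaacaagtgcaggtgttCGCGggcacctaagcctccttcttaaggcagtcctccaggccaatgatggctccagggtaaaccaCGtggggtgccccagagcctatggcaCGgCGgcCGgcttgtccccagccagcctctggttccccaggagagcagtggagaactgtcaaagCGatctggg
Onecut1: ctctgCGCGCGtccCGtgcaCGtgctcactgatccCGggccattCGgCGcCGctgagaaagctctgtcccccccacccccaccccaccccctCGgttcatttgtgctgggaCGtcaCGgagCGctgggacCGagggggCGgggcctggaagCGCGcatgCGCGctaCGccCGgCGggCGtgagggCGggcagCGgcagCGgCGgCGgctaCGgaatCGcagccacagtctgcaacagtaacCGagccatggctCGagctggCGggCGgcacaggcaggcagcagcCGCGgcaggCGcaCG
Hhex: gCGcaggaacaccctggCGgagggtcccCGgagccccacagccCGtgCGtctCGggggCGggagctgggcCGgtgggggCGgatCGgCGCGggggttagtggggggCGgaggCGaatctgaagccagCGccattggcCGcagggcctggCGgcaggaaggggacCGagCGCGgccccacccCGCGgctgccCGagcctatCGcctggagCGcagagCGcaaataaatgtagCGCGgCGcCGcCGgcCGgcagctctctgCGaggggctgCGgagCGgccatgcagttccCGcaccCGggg
Prox1 start 1: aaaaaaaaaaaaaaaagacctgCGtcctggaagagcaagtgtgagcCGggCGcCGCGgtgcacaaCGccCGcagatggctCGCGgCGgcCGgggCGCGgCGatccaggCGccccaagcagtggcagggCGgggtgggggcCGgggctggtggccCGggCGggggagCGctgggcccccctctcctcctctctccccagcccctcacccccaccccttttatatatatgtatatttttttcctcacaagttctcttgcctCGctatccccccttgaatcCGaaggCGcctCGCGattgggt
Prox1 start 2: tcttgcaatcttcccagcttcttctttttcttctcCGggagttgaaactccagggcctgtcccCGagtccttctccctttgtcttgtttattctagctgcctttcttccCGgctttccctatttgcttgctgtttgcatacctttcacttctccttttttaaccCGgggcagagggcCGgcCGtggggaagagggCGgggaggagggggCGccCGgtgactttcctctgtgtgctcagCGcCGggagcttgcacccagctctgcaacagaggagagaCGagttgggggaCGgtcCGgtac

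All 6 genes had a Suz12 peak within 10 kb, a state found at 15.9% of protein-coding genes (3437 of 21631). All 6 also had a peak over the gene itself, against 12.3% of protein-coding genes. There were 12 peaks in all, of which 8 overlapped the gene and 4 lay wholly outside it. Hhex had a single peak, Pdx1, Onecut2, Prox1 and Cdx1 had 2 each and Onecut1 had 3. Thus 5 of the 6 genes had 2 or more peaks, a state found at 3.23% of protein-coding genes and at 20.3% of the 3437 genes with a peak. This state depended on the settings. Only Pdx1 and Prox1 had 2 peaks at 0 and 2.5 kb, and only Cdx1 kept 2 when peaks within 3 kb were joined. The share over all genes at these settings is not given. No peak was counted for more than 1 of the 6 genes.

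**Figure D1:**
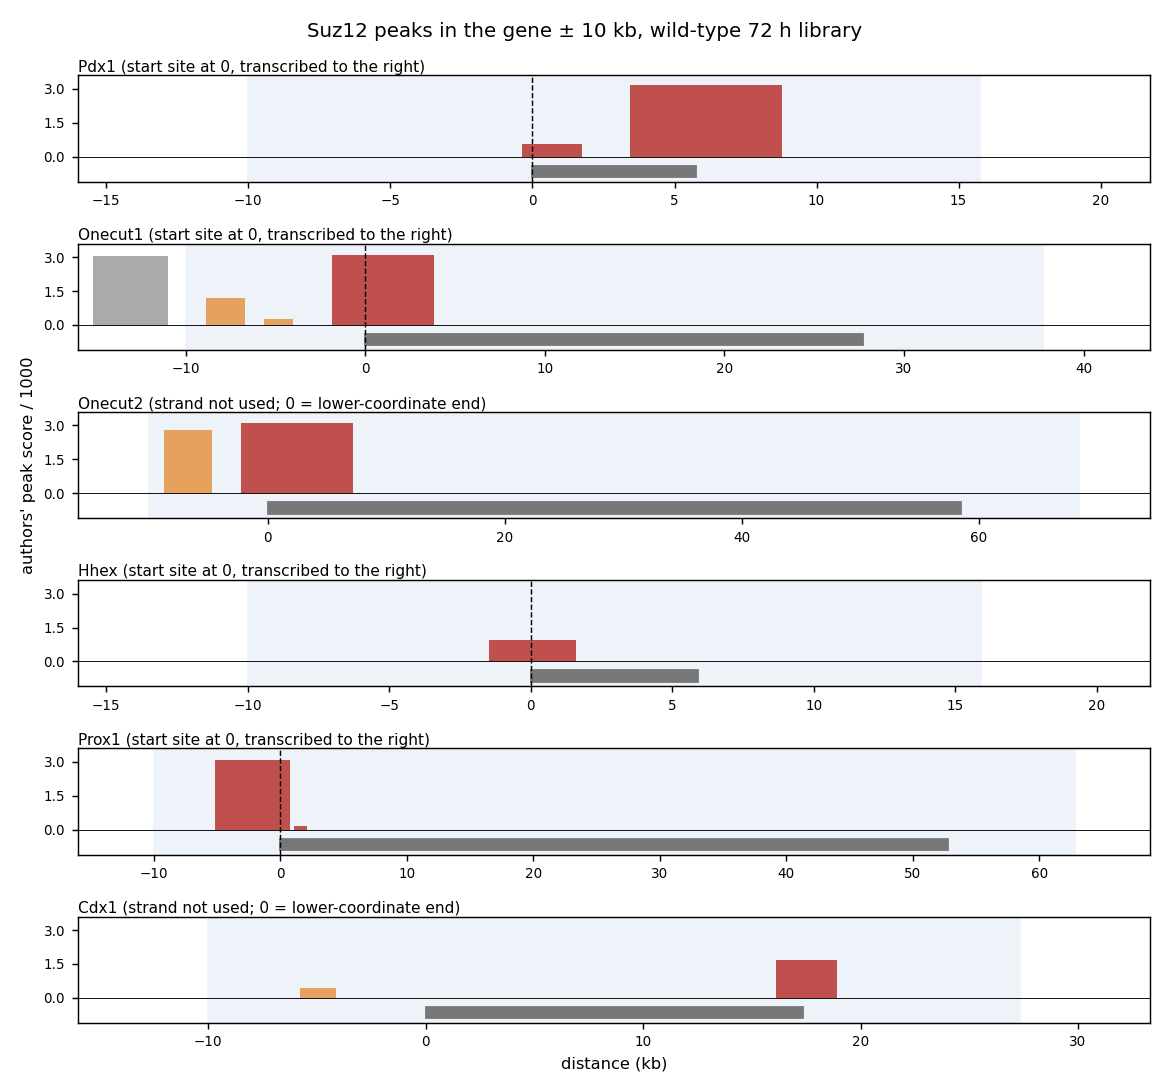
Suz12 peaks around the 6 genes: the horizontal axis is the distance in kb from the start site (from the lower-coordinate end for Onecut2 and Cdx1), the height of a bar is the authors' peak score divided by 1000 and its breadth is the peak's width. Dark grey bars are genes, red peaks overlap the gene, orange peaks lie outside it, the light grey peak at Onecut1 lies beyond 10 kb, and shading marks the gene with 10 kb on each side; the tallest Pdx1 peak lies at the far end of the gene, while those of Onecut1, Hhex and Prox1 cover the start.

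The peaks varied widely in width and score. The widths ran from 1048 bp at Prox1 to 9465 bp at Onecut2 with a median of 2954 bp, against a median of 1849 bp over all 3373 deposited peaks. The score is the authors' own value on a scale the file does not state, and it ran from 180.31 to 3180.45 with a median of 1438, against 572 over all peaks. In the deposited list 325 peaks share the score 3100 and 30 score above it, so scores at the top were not ranked. The best peak scored 3100 or more at 4 of the 6 genes, namely Pdx1, Onecut1, Onecut2 and Prox1, against 2.02% of protein-coding genes and 12.7% of genes with a peak. The best scores of Cdx1 (1662) and Hhex (944) lay below that value. Of the 12 peaks, 3 were narrower and 3 scored lower than the median of all peaks.

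Pdx1 was the gene most covered by Suz12 in proportion to its length. It spans 5752 bp on chromosome 5 from 147270097 to 147275848 and is transcribed toward higher coordinates. Its first peak, from 147269725 to 147271849, was 2125 bp wide, scored 584 and covered the start site. Its other peak, from 147273524 to 147278867, was 5344 bp wide and scored 3180.45. This wider peak began 3427 bp after the start site and ran past the far end of the gene. Of the 4 genes whose strand was used, Pdx1 was the one whose best peak did not cover the start site. Together the peaks covered 4078 bp, or 70.9% of the gene, and the gap between them was 1674 bp. Among genes with a peak within 10 kb, 92.4% had a smaller share of their length covered. They include genes whose peaks all lay outside the gene.

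Pdx1 lies between Gsx1 and Cdx2, homeobox genes that with it form the ParaHox cluster, an evolutionary sister of the Hox clusters. From the outer end of Gsx1 to that of Cdx2 the cluster spans 118554 bp on chromosome 5, from 147188696 to 147307249, and holds these 3 protein-coding genes. Peaks touched it at 6 places and covered 22438 bp, or 18.9% of it. Gsx1, a factor of forebrain and hypothalamus, lay wholly under a peak of 7921 bp with score 3100. Cdx2, which acts in intestine and trophoblast, had peaks of 2985 bp (score 635) and 5639 bp (score 3100) over it, and they covered 93.5% of the gene. The 3 genes thus each had a peak of score 3100 or more, and Pdx1 was the least covered of them. A further peak of 3199 bp (score 1295), from 147221001 to 147224199, overlapped no protein-coding gene and ended 45898 bp before Pdx1. The nearest peak on the other side of Pdx1 was the narrower one at Cdx2, 23519 bp away.

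Onecut1 and Onecut2, the paralogues, both had peaks outside one end of the gene as well as over that end, and within 10 kb they had the most peak length of the 6 genes. Onecut1 spans 27728 bp on chromosome 9 from 74861921 to 74889648 and is transcribed toward higher coordinates. A peak of 5699 bp with score 3100, from 74860069 to 74865767, covered its start site and reached 1852 bp before it. Of the other peaks, one of 1604 bp (score 267) ended 4038 bp before the start, and one of 2183 bp (score 1214) ended 6708 bp before it. All 3 lay at the start or before it, and the rest of the gene had none. They left 13.9% of the gene covered. Just outside the limit of 10 kb lay a further peak, 4150 bp wide with score 3061, which ended 10995 bp before the start and was not counted. On the far side of Onecut1 the next peak was 2765159 bp away.

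Onecut2 had the widest peak of the 6 genes and, within 10 kb, the highest total. It spans 58457 bp on chromosome 18 from 64340032 to 64398488, and its strand was not used. A peak of 9465 bp with score 3100, from 64337760 to 64347224, covered its lower-coordinate end, and 7193 bp of that peak (76.0%) lay inside the gene. A separate peak of 4016 bp (score 2778) ended 4705 bp below that end. In total 13481 bp of peaks lay in the gene with 10 kb on each side, and 64 protein-coding genes had more. Since the gene is long, its covered share was 12.3%. The gene's upper end and the 10 kb beyond it held no peak. Onecut3, the third paralogue, had a comparable extent, with peaks of 10238 bp (score 3100) and 2450 bp (score 1934) that amounted to 12688 bp.

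At Prox1 most of the peak length lay before the gene. Prox1 spans 52793 bp on chromosome 1 from 190118035 to 190170827 and is transcribed toward lower coordinates. A peak of 5888 bp with score 3100, from 190170089 to 190175976, covered start 1, and 5149 bp of it lay before that start. A second peak of 1048 bp, from 190168704 to 190169751, lay wholly inside the gene and covered start 2. Its score of 180.31 was the lowest of the 12 peaks, and 8.03% of all deposited peaks scored lower. The gap between these peaks was 337 bp. Together they covered 3.38% of the gene, the smallest share of the 6. Beyond 10 kb the next peaks were 1012480 bp away on the side of the start and 773653 bp away on the other. Prox2, the paralogue of Prox1, had no peak within 10 kb.

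Hhex had the least peak length of the 6 genes within 10 kb, but Cdx1 had less at 0 and 2.5 kb and when peaks that scored below the median were left out. It spans 5891 bp on chromosome 19 from 37434841 to 37440731 and is transcribed toward higher coordinates. Its single peak, from 37433370 to 37436432, was 3063 bp wide, scored 944 and covered the start site with 1471 bp before it. This peak covered 27.0% of the gene, the largest share after Pdx1. It was isolated, since the next peaks lay 200092 bp and 256809 bp away. Even so, 70.9% of genes with a peak had less peak length than Hhex.

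Cdx1 spans 17338 bp on chromosome 18 from 61018862 to 61036199, and its strand was not used. A peak of 2845 bp (score 1662), from 61034955 to 61037799, covered its upper-coordinate end and 7.18% of the gene. This peak also covered 24.3% of Gm52351, a neighbour that RefSeq lists as protein-coding and that overlaps Cdx1, so it cannot be given to Cdx1 alone. The other peak, of 1626 bp (score 458), ended 4146 bp below Cdx1 and overlapped an end of Slc6a7, a proline transporter gene. The Cdx1 peaks were 20238 bp apart. The caudal genes differed in extent: 4471 bp of peaks lay near Cdx1, 10579 bp near Cdx2 and 1631 bp near the X-linked Cdx4, whose single peak scored 424.

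**Figure D2:**
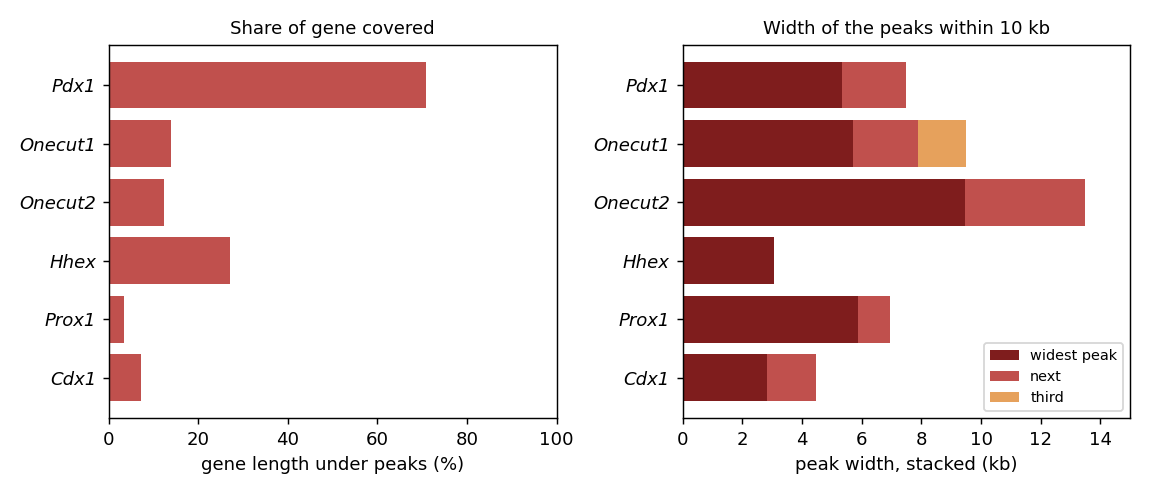
Share of each gene's length under Suz12 peaks in percent (left) and the widths in kb of the peaks within 10 kb, stacked from the widest (right), for the 6 genes in 1 library. Pdx1 has the largest covered share, 70.9%, and Onecut2 the largest summed width, 13481 bp.

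The order of the genes depended on the measure and on the distance. By peak bases in the gene with 10 kb on each side the order was Onecut2 (13481), Onecut1 (9486), Pdx1 (7469), Prox1 (6936), Cdx1 (4471) and Hhex (3063). Within 5 kb Onecut1 (6662) came below Pdx1 (7469) and Prox1 (6787). Within 25 kb Onecut1 (13636) came above Onecut2 (13481), and within 50 kb Pdx1 (21247), with the peaks of its ParaHox neighbours, came above both. By covered share of the gene the order was Pdx1, Hhex, Onecut1, Onecut2, Cdx1 and Prox1. With 1 library no spread over replicates is known, and neighbours in either order cannot be said to differ. The median of peak bases over the 6 genes was 7203 bp, against 2052 bp over the 3437 genes with a peak. The median covered share was 13.1%, against 2.46% over genes with a peak. These sets are unlike, since all 6 genes had a peak over the gene itself. Of the 3437 genes, 2656 had one, and the others had no covered share. Joining neighbouring peaks less than 3 kb apart turned the 12 peaks into 7 domains. Pdx1, Onecut1, Onecut2, Hhex and Prox1 then had 1 domain each, of 9143, 12737, 15913, 3063 and 7273 bp, while the Cdx1 peaks stayed apart. These lengths join the counted peaks only. The uncounted peak beyond 10 kb of Onecut1 lay within 3 kb of its outermost counted peak. With it the Onecut1 domain would begin at 74846777 and be longer than that of Onecut2.

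The question of whether other factors of these organs held Suz12 was put to 3 further lists. Of 45 other transcription factors of gut, liver and pancreas, 34 (75.6%) had a peak within 10 kb, and 18 had a best score of 3100 or more. The median of the 45 factors was 4781 bp of peaks, and 4 of them had more than Onecut2. These were Pax6 (16806 bp), an eye, brain and islet factor, Nkx2-2 (15308 bp), which acts in islets and neural tube, and the gut mesenchyme factors Barx1 (14675 bp) and Nkx2-3 (13651 bp). Below Onecut2 came, among others, the beta cell factor Nkx6-1 (12240 bp), the endoderm and heart factor Gata4 (10712 bp) and Sox2 (9279 bp), a factor of pluripotent cells, neural tissue and foregut. The 11 factors without a peak included the liver factor Hnf4a, the acinar factor Bhlha15, the epithelial factor Elf3, and Cebpb and Hes1. Of the 6 relatives of the described genes, 5 had a peak, and their median was 9250 bp.

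Peaks near genes for products of liver, gut and pancreas were counted in the same way. Of 40 such genes, 3 (7.50%) had a peak within 10 kb, against 15.9% of protein-coding genes, a small count that was not tested. None had a score of 3100 or more, but only 2.02% of protein-coding genes had one, so its absence among 40 says little. The median of the product genes was 0 bp, as it was over all protein-coding genes. Abcc8, a subunit of the beta cell potassium channel, had a peak of 1615 bp (score 661), and Pcsk1, which cleaves prohormones, one of 1123 bp (score 154). The peak counted for Ppy, the pancreatic polypeptide gene, lay 5224 bp from it and covered all of its neighbour Pyy, which encodes the gut hormone peptide YY. No peak lay within 10 kb of the plasma protein genes Afp, Alb, Apoa1, Apoa2 and Apob or of the amylase gene Amy2a5. The insulin genes Ins1 and Ins2, which Pdx1 is known to act on, had none either. The described factors all had more peak length than any of the 40 product genes. Both the factors and the lists were chosen with earlier results of these data known, so this difference is a description only. No test was made between the lists, since each describes this 1 library.

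**Figure D3:**
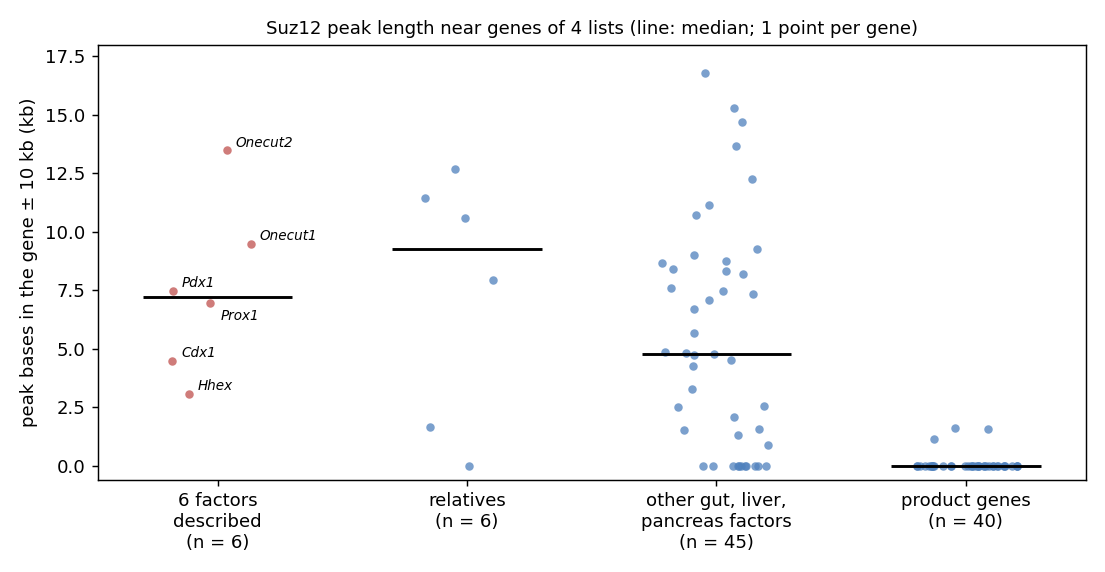
Suz12 peak length in kb within the gene and 10 kb on each side, 1 point per gene, for the 6 described factors (red), 6 relatives, 45 other transcription factors of gut, liver and pancreas and 40 product genes; the line is the median and sideways scatter has no meaning. The medians are 7203, 9250, 4781 and 0 bp, and 3 product genes lie above 0.

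The start-site windows shown above ranged widely in CG content, although a peak lay over each. The Onecut1 window held 38 CG dinucleotides in 300 bases and the Hhex window 37, more than 95.0% and 94.4% of the 32619 RefSeq windows. Against the 2219 windows under a peak these shares were 87.2% and 85.7%. Prox1 start 1 held 25 and start 2 held 14. The Pdx1 window held 11, more than 58.3% of all windows but more than only 17.9% of the 2219 windows under a peak. The median was 7 over all windows, 21 in windows under a peak and 6 in windows without one. The Hhex window thus had nearly as many CG dinucleotides as that of Onecut1, with peak scores of 944 and 3100. At Prox1, start 1 had the higher CG count and the higher-scoring peak. At Pdx1 the window lay under the lower-scoring of its peaks, and the sequence of the wider peak was not used here.

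**Figure D4:**
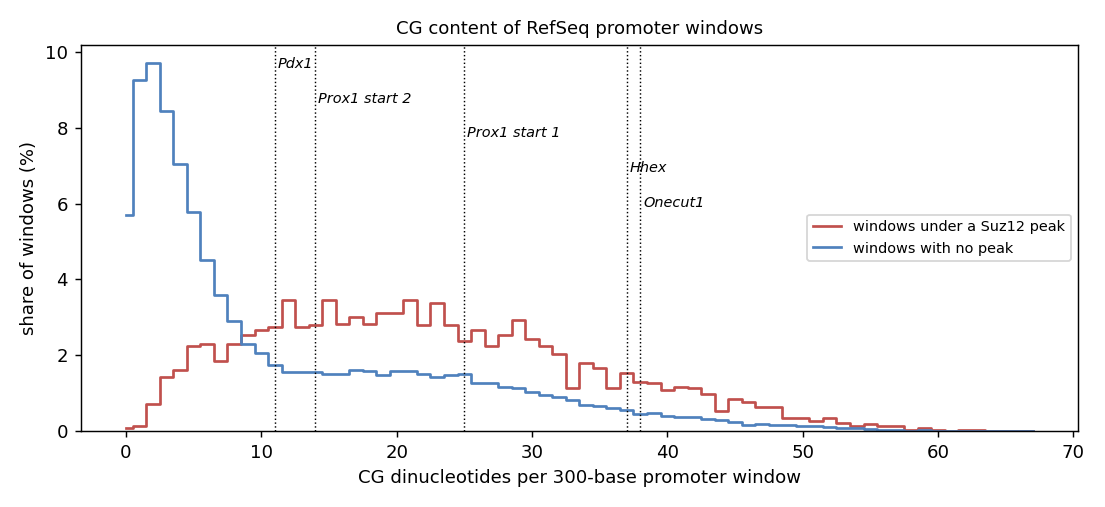
CG dinucleotides per 300-base RefSeq promoter window (horizontal axis) against the share of windows in percent, for 2219 windows under a Suz12 peak (red) and the remaining windows (blue); dotted lines mark the windows of Pdx1, Prox1, Hhex and Onecut1. Pdx1 with 11 and Prox1 start 2 with 14 lie left of the median of 21 for windows under a peak, and Onecut1 with 38 and Hhex with 37 lie right of it.

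Short motifs were counted on both strands of the same windows, overlapping matches included. GGGCGG, the core of the GC box, had 3 matches in the windows of Onecut1 and Hhex, 2 at Prox1 start 1, 1 at Prox1 start 2 and 0 at Pdx1. It occurs in 64.3% of windows under a peak and in 35.9% of all windows. CCAAT had 2 matches at Pdx1, 1 at Hhex and 1 at Prox1 start 1, and occurs in 29.3% of windows under a peak and in 37.6% of all windows. TATAAA had 1 match, at Prox1 start 1, and occurs in 7.44% of windows under a peak and in 13.7% of all windows. These matches describe letters in the window and show no bound factor.

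The genes most like each described gene in this library were sought by the number of peaks, a gene length within 25% and the covered share of the gene with 10 kb on each side. With 1 library, likeness across samples could not be measured. Pdx1 (29.0%) was nearest to 2310009B15Rik (28.9%) and the protocadherin gene Pcdh8 (29.7%). Onecut1 (19.9%) was nearest to the eye homeobox gene Vax2 (18.1%) and Ncan (17.5%). Onecut2 (17.2%) had no close match, its nearest being Elfn1 (11.5%) and Wnt9b (9.70%). Prox1 (9.53%) was nearest to Wnt9b as well and to Kcnk12 (8.89%). Hhex (11.8%) was nearest to Fgf15 (11.8%) and Prph (12.1%), and Cdx1 (12.0%) to Rps6ka4 (12.04%) and Dpf1 (11.8%).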

How the data were processed

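Suz12 was mapped in 1 library of wild-type E14 cells at 72 h. The authors used Bowtie and MACS with build GRCm38 (mm10), per the submitters' processing notes (their versions, settings, control and pooling were not stated). The deposited list gives the start, end and score of each peak, and the file states no scale for this score. Starts were converted to count from 1. Gene ends came from a RefSeq table of GRCm38.p6, and strand and promoter sequence from RefSeq windows that matched 4 of the 6 genes. All 97 listed symbols matched. A peak was near a gene when it shared a base with the gene widened by 10 kb. Python 3.11.15 and pandas 2.3.3 were used, and the overlap code was tested on simulated peaks. The described genes and the lists were chosen with earlier results of these data known. Named genes are all 6, up to 8 genes with most peak bases and up to 6 without a peak (in alphabetical order) per other list, genes under the 12 peaks, and the 2 most alike; Ins1, Ins2 and Pyy were named after their values were seen, and some genes that the rule names are not reported here. Alternatives varied the distance, the score threshold, the overlap, the joining of peaks and the genes counted.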

Additional observations from a re-analysis of the deposited data

How the results depend on the processing

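All 6 genes kept a peak at distances of 0, 2.5, 5, 25 and 50 kb. They also kept one with the minimum score raised to 300.6 (2 times the lowest) or to the median. The same held when the peak's midpoint had to lie in the window. The share of protein-coding genes with a peak rose from 12.3% at 0 kb to 20.8% within 25 kb and 27.8% within 50 kb. A peak at all 6 genes therefore says less at the wider distances. The number of peaks near the 6 genes was 8 at 0 and 2.5 kb, 11 at 5 kb, 14 at 25 kb and 17 at 50 kb. With the stricter scores it was 10 and 9. Of 53 alternative values for the main results, 46 stayed within 1.5 times and 7 moved. Changes in the order of genes were not scored in this count. Of 108 values for single genes, 81 stayed within 1.5 times and 27 moved, most of them with the distance or the joining of peaks. Peak bases at Pdx1 numbered 4078 at 0 kb and 21247 within 50 kb, those at Onecut1 3847 at 0 kb and 5699 within 2.5 kb, those at Onecut2 7193 at 0 kb and those at Prox1 1787 at 0 kb and 4287 within 2.5 kb. At 0 kb Hhex had 1592 and Cdx1 1245, and Cdx1 had 2845 within 2.5 kb and at or above the median score. The order of the genes by peak bases therefore turned with the distance, with Pdx1 above Onecut1 at 0, 2.5, 5 and 50 kb. Onecut1, Onecut2 and Cdx1 had 1 peak each at 0 and 2.5 kb. Joining peaks within 3 kb gave 7 domains, by construction. The median peak length was 2817 bp when only bases inside the gene counted. Protein-coding genes with a peak numbered 6010 (27.8%) within 50 kb and 1883 at or above the median score. Of the 40 product genes, 5 had a peak within 25 kb, beside 20.8% of protein-coding genes, and 6 within 50 kb, beside 27.8%. Only 1 had a peak at or above the median score. Without the low-scoring peak over start 2, which both stricter scores removed, the covered share of Prox1 was 1.40%. The 11 peaks within 5 kb leave out the outermost Onecut1 peak, and the Cdx1 peak at Slc6a7 scored below the median. No paired analysis was possible because a peak list was used for 1 library only and no test was made. With the depth unknown, the absence of a peak sets no limit on binding.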

Other observations

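Long non-coding RNA genes lay under several of the peaks at these factors. Of the 12 peaks, 5 (41.7%) overlapped a RefSeq lncRNA gene, against 20.3% of all 3373 peaks (686). These shares are not like for like, since 3 of the 5 lay under 1 lncRNA gene. The 12 peaks were also wider, with a median of 2954 bp against 1849 bp over all peaks. Plut, which overlaps the start of Pdx1, shared 1797 bp with the lower-scoring Pdx1 peak. Gm33562 ran across all 3 Onecut1 peaks and shared 3068 bp with the one over the start site, and Gm38678 began 31 bp after the end of that peak. The uncounted peak beyond 10 kb of Onecut1 covered 2490 of the 4436 bp of Gm16551. Prox1os overlapped the start of Prox1 and shared 5681 bp with its wider peak. No lncRNA gene overlapped the peaks counted for Onecut2, Hhex or Cdx1. Peaks that overlap both a factor gene and a lncRNA gene cannot be given to either alone, and these lncRNA genes were named after their values were seen.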
